A study of Mus musculus with 2 samples.

Results

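The genes described here are 10 genes of histone variants and of the chaperones that carry and deposit histones, namely H2afz, H3f3a, H3f3b, Asf1a, Asf1b, Chaf1a, Chaf1b, Hira, Daxx and Atrx. They were chosen by gene symbol, and each of the 10 was found once among the 23418 rows of the deposited count table. RNA was sequenced from mouse embryos of the C57BL/6 background that had been injected with siRNA, short double-stranded RNA that directs the degradation of a matching transcript. One library, siDnmt1, came from a pool of 20 embryos injected with siRNA against Dnmt1, the maintenance DNA methyltransferase. The other came from 20 pooled embryos that had received a scrambled siRNA, and both pools were taken at the 4 to 8-cell stage. All embryos compared were therefore injected, and their sex is not recorded. With 1 library per group there was no replicate check and no p-value was computed. Intervals are 95% Clopper-Pearson intervals of the ratio of counts. They cover counting error only, not the amplification by 20 cycles of PCR or the difference between pools.

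Histone variants differ from the canonical histones in that they can be built into chromatin outside DNA replication. H2A.Z, encoded by H2afz, is found around active promoters and at other regulatory regions, and H3.3, encoded by H3f3a and H3f3b, marks transcribed genes and also parts of heterochromatin. New H3-H4 pairs are handed on by ASF1 to CAF-1, which deposits canonical H3 behind the replication fork, or to HIRA, which deposits H3.3, while DAXX with ATRX deposits H3.3 at heterochromatin and repeats. In the zygote, maternal HIRA and H3.3 take part in rebuilding the paternal chromatin, and CAF-1 is needed for the chromatin organisation of cleavage embryos.

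The libraries held 12236615 (siDnmt1) and 11675483 counts (scrambled), of which the ribosomal RNA precursor Rn45s took 37.3% and 29.9%. Dnmt1 itself had 687 counts against 847, which was 1.23-fold lower in siDnmt1 (interval 1.11 to 1.37). Its log2 ratio, defined below, was -0.30, and 38.3% of all genes compared were as low or lower. The intervals of 72.4% of these genes excluded equality, so that of Dnmt1 does not set it apart from the general spread between the libraries. All 11 markers of oocytes and early embryos were detected in at least 1 library and summed to 1851 and 2794 counts, of which Pou5f1 made up 1489 and 2152. Of these markers, only Padi6 (51 against 29) and Gdf9 (27 against 24) were higher in siDnmt1. All the others were lower there, among them Dppa3 (70 against 194) and Zp3 (13 against 42). Ooep and Tcl1 were at 0 in siDnmt1 (15 and 33 counts in scrambled). Of 9 markers of cumulus and granulosa cells, 8 were at 0 in both libraries, and the exception, Nr5a2 (1659 and 1484 counts), is also expressed by early embryos. The 4 sperm markers were at 0, 3 oviduct markers summed to 0 and 3 counts and 3 blood markers to 16 and 6 counts. The 5 markers of blastocyst lineages summed to 2242 and 2477 counts. Of these, Gata6 (1619 against 2016) was lower in siDnmt1. Gata4 (563 against 422), Gata3 (52 against 36) and Cdx2 (8 against 3) were higher there, and Sox17 was at 0 in both libraries.

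The 3 histone genes and both ASF1 genes were lower in the siDnmt1 library, by 1.97-fold to 3.69-fold. Daxx was lower by less than 2-fold, Chaf1b was nearly equal, and Chaf1a, Hira and Atrx were higher by less than 2-fold. A gene was counted as higher or lower when its log2 ratio, log2((siDnmt1 + 5)/(scrambled + 5)), was at least 1 in either direction. This was done for the 7315 genes whose mean count over both libraries was 20 or more, and all 10 genes passed that filter. Of the 10, 4 were at least 2-fold lower (H2afz, H3f3a, Asf1a and Asf1b), against 16.7% of all genes compared. None of the 10 (0) was at least 2-fold higher, against 12.5% of all genes. The median log2 ratio of the 10 was -0.75, beside -0.025 over all genes compared. In these bulk pools, fewer cells at a given stage and less RNA per cell cannot be told apart.

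**Figure D1:**
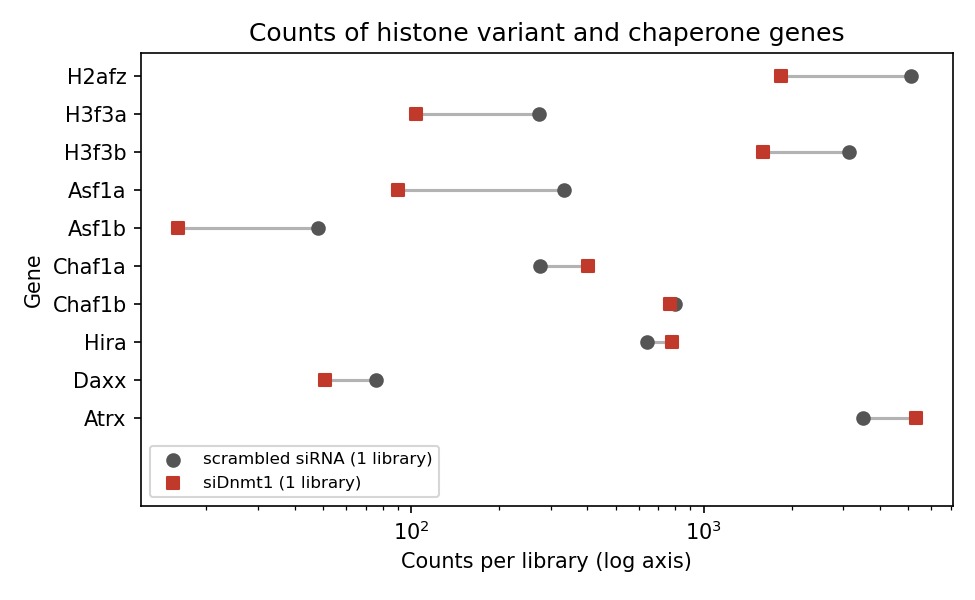
Counts of each gene (x axis, counts per library on a log axis) in the siDnmt1 library (squares) and the scrambled library (circles), 1 library each; grey lines join the values of a gene. H2afz, H3f3a, H3f3b, Asf1a and Asf1b lie to the left in siDnmt1, Chaf1b is nearly equal, and Chaf1a, Hira and Atrx lie to the right.

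H2afz, the gene of the histone variant H2A.Z, had 1841 counts in siDnmt1 and 5103 in scrambled. Per kilobase of the longest coding transcript it was the most abundant of the 10 in both libraries, and it was 2.77-fold lower in siDnmt1 (interval 2.63 to 2.93). Its log2 ratio was -1.47, and 8.75% of all genes compared had a ratio as low or lower. H2afz has the shortest transcript of the 10 (1069 nt), and short transcripts were lower in siDnmt1 in general. Once the general trend with length had been taken out, its log2 ratio was -0.50, and 28.3% of genes were as low or lower. With the trend fitted on the median protein-coding transcript of each gene the value was -1.10. H2afv, a second gene for H2A.Z, gave few counts, with 31 in siDnmt1 and 21 in scrambled. H2afv thus made up 1.66% of the H2A.Z counts in siDnmt1 (interval 1.13% to 2.34%) and 0.410% in scrambled (0.254% to 0.626%). These shares do not depend on the scaling between libraries, and their intervals do not overlap.

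H3.3 was lower from both of its genes. H3f3b had 1595 counts in siDnmt1 and 3140 in scrambled, 1.97-fold lower (1.85 to 2.09). H3f3a had 104 and 274 counts, 2.63-fold lower (2.09 to 3.33). With a log2 ratio of -0.97, H3f3b lay just inside the 2-fold rule, and H3f3a at -1.36 lay outside it. Scaling to equal totals took H3f3b past the rule, at -1.04. Summed over both genes, H3.3 reached 1699 counts against 3414, or 2.01-fold lower (1.90 to 2.13). H3f3a supplied 6.12% of the H3.3 counts in siDnmt1 (5.03% to 7.37%) and 8.03% in scrambled (7.14% to 8.99%), and these intervals overlap. After removal of the length trend the log2 ratios were -0.88 for H3f3b and -1.30 for H3f3a. The annotated transcripts of H3f3a differ widely in length, with a longest coding transcript of 2841 nt and a median of 602 nt, and on the median length its value was -0.99. On the opposite strand, the non-coding genes Gm17275 and H3f3aos overlap H3f3a over 6916 and 168 nt, and neither has a row among the counts. Without a stated strand setting, reads from these overlaps cannot be assigned with certainty.

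H3f3a and H3f3b encode the same protein, and H2afz and H2afv encode nearly the same one, so it matters whether reads can tell the genes of a pair apart. The coding sequences (GENCODE M21) differ at many bases. Between H3f3a and H3f3b, 95 of 411 coding bases differed (76.9% identical), 81 of them at the last base of a codon, and the longest identical run was 23 bases. Between H2afz and H2afv, 81 of 387 bases differed (79.1% identical), and the longest identical run was 14 bases. Bases 1 to 90 of each coding sequence are shown, counted from the start codon, with the bases that differ within a pair in capitals (20 in the H3.3 pair and 19 in the H2A.Z pair).
H3f3a: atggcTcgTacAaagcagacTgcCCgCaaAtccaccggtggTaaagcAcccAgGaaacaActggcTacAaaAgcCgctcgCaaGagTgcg
H3f3b: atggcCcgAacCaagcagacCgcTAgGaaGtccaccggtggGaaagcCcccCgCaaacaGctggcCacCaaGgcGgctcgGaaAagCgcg
H2afz: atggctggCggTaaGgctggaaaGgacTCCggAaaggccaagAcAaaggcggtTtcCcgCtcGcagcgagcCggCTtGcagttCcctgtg
H2afv: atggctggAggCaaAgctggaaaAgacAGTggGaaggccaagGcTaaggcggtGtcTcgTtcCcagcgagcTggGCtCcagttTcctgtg
Processed copies of H3.3 genes elsewhere in the genome, such as H3f3c, were not analysed here, and how the counting treated reads with several matches is not given in the sources used here, so the histone gene counts remain uncertain to that extent.

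The ASF1 genes, whose proteins bind H3-H4 and pass it to CAF-1 and HIRA, were both lower in siDnmt1. Asf1a had 90 counts against 332, 3.69-fold lower (2.91 to 4.71), the largest difference among the 10 genes. Its log2 ratio was -1.83, and 5.48% of all genes compared were as low or lower. It remained at -1.66 after removal of the length trend, where 5.30% of genes were as low or lower. Asf1b, the form associated with proliferating cells, had 16 counts against 48, 3.0-fold lower with a wide interval (1.67 to 5.66). Its log2 ratio of -1.34 was -0.97 after removal of the length trend and -0.92 with a pseudocount of 20, both inside the 2-fold rule. Asf1a exceeded Asf1b 5.63-fold in siDnmt1 (3.28 to 10.3) and 6.92-fold in scrambled (5.10 to 9.57), and these intervals overlap. The whole of Asf1a lies within Mcm9, a helicase gene on the opposite strand. Mcm9 had 497 counts in siDnmt1 and 302 in scrambled, the opposite direction to Asf1a. No strand setting is stated for the counting, so reads from the overlap cannot be assigned to either gene with certainty.

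The CAF-1 genes did not share the direction of ASF1. Chaf1b, the middle subunit, had 765 counts in siDnmt1 and 796 in scrambled, a ratio of 0.961 whose interval includes equality (0.869 to 1.06). It was the only one of the 10 genes with such an interval. The intervals of the other 9 excluded equality, as did those of 72.4% of all genes compared. Of these 9, 6 were lower and 3 higher, against 37.0% and 35.4% of all genes. The log2 ratio of Chaf1b was -0.057 and changed sign, to 0.037, when the libraries were scaled to equal totals without Rn45s. Chaf1a, the large subunit that binds the replication clamp PCNA, had 404 counts against 277, 1.46-fold higher (1.25 to 1.71). Its log2 ratio was 0.54. The count of Chaf1a relative to Chaf1b was 0.528 in siDnmt1 (0.467 to 0.597) and 0.348 in scrambled (0.302 to 0.399), and these intervals do not overlap. Chaf1a has a longest coding transcript of 5535 nt and Chaf1b of 1922 nt, so the pair also differs in the direction of the general length trend. After removal of the trend the log2 ratios were 0.37 for Chaf1a and 0.23 for Chaf1b, closer together than the 0.54 and -0.057 before it. On the longest transcript of any type they were 0.34 and 0.020. One end of Chaf1a overlaps Ubxn6 on the opposite strand (31 and 93 counts).

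HIRA deposits H3.3 independently of replication. Hira had 781 counts in siDnmt1 and 641 in scrambled, 1.22-fold higher (1.10 to 1.35). Its log2 ratio was 0.28, well inside the middle 50% of all genes, which spanned -0.67 to 0.57. After removal of the length trend it was 0.16. Hira and the H3.3 genes it serves thus differed in direction between these libraries. Gm28539, annotated as protein-coding on the same strand, overlaps Hira over 79211 nt and has no row of its own among the counts.

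The other H3.3 route is a pair of proteins, the chaperone DAXX and the ATP-dependent remodeller ATRX. Daxx had few counts, with 51 in siDnmt1 and 76 in scrambled, 1.49-fold lower (1.03 to 2.17). Atrx had 5302 and 3511 counts, 1.51-fold higher (1.45 to 1.58). The log2 ratios were -0.53 for Daxx and 0.59 for Atrx, and neither reached 2-fold. Atrx has the longest transcript of the 10 (10275 nt), and its value was 0.39 after removal of the length trend, where that of Daxx was -0.46. With the trend fitted on the median coding transcript, Atrx stood at 0.78 and Daxx at -0.16, so both values depended on the length used. Daxx counts amounted to 0.00962 of the Atrx counts in siDnmt1 (0.00715 to 0.0127) and 0.0216 in scrambled (0.0170 to 0.0272). Hira counts exceeded Daxx counts 15.3-fold (11.5 to 20.7) and 8.43-fold (6.64 to 10.8). In neither comparison do the intervals overlap between the libraries.

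**Figure D2:**
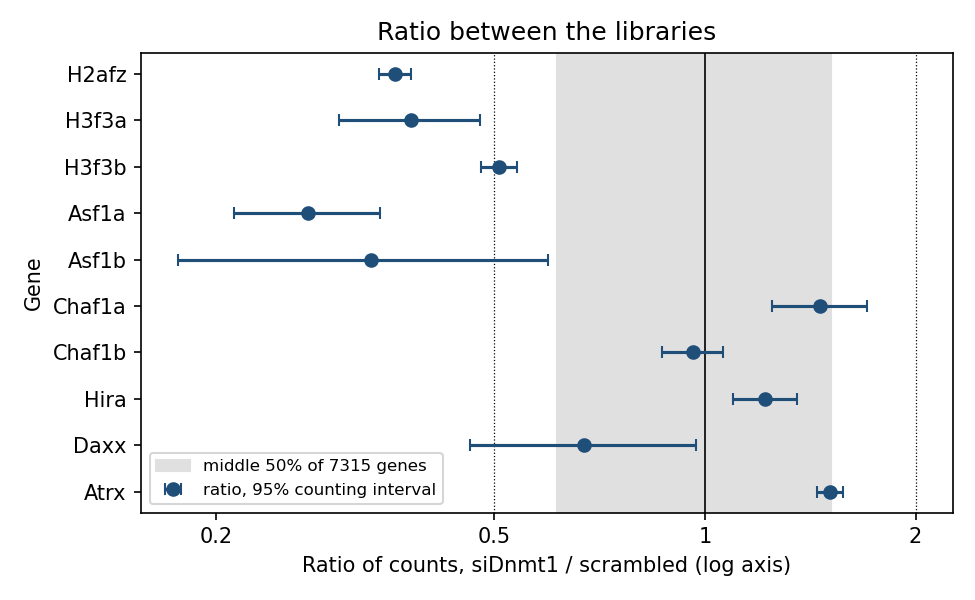
Ratio of counts, siDnmt1 over scrambled (log axis), for each gene, with 95% counting intervals as bars; the grey band is the middle 50% of the 7315 genes compared, as plain ratios without a pseudocount (0.615 to 1.52), and dotted lines mark 2-fold. The 3 histone genes and both ASF1 genes lie left of the band, and the other 5 points lie within it, Atrx at its edge (1.51).

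Levels of different genes were compared as counts per kilobase of the longest coding transcript and per 1000000 counts outside Rn45s. In scrambled, H2afz stood at 583 and H3f3b at 153, followed by Chaf1b (50.6), Atrx (41.7), Hira (18.6), Asf1a (18.4), H3f3a (11.8), Chaf1a (6.11), Daxx (3.47) and Asf1b (3.28). In that order the neighbours Hira and Asf1a, and Daxx and Asf1b, did not differ beyond their counting intervals. In siDnmt1 the order was H2afz (225), H3f3b (82.7), Atrx (67.3), Chaf1b (51.9), Hira (24.1), Chaf1a (9.52), Asf1a (5.33), H3f3a (4.77), Daxx (2.49) and Asf1b (1.17). There the intervals of Asf1a and H3f3a, and those of Daxx and Asf1b, overlapped. On this length H2afz and H3f3b led in both libraries, and Atrx stood above Chaf1b in siDnmt1 alone. The order depends on the transcript taken as the gene's length. With the median coding transcript, Atrx had 420 and 260 and was above H3f3b (92.3 and 170) in both libraries, and above H2afz (296) in siDnmt1.

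Transcript length moved with the ratio across all genes, and the 10 genes were spread along it. Of the 7270 genes compared that had a length, the shortest 25% (346 to 2380 nt) had a median log2 ratio of -0.48, and 30.5% of its genes were at least 2-fold lower. The longest 25% (5126 to 123179 nt) had a median of 0.18, and 8.54% were at least 2-fold lower. The shortest 25% held H2afz, Asf1a, Asf1b and Chaf1b, the next group H3f3a, H3f3b and Daxx, the next Hira, and the longest Chaf1a and Atrx. With the trend removed, 2 of the 10 genes (Asf1a and H3f3a) were at least 2-fold lower, against 13.7% of genes on that scale, and 0 were at least 2-fold higher, against 12.8%. Their median was then -0.48, beside 0.012 over all genes.

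**Figure D3:**
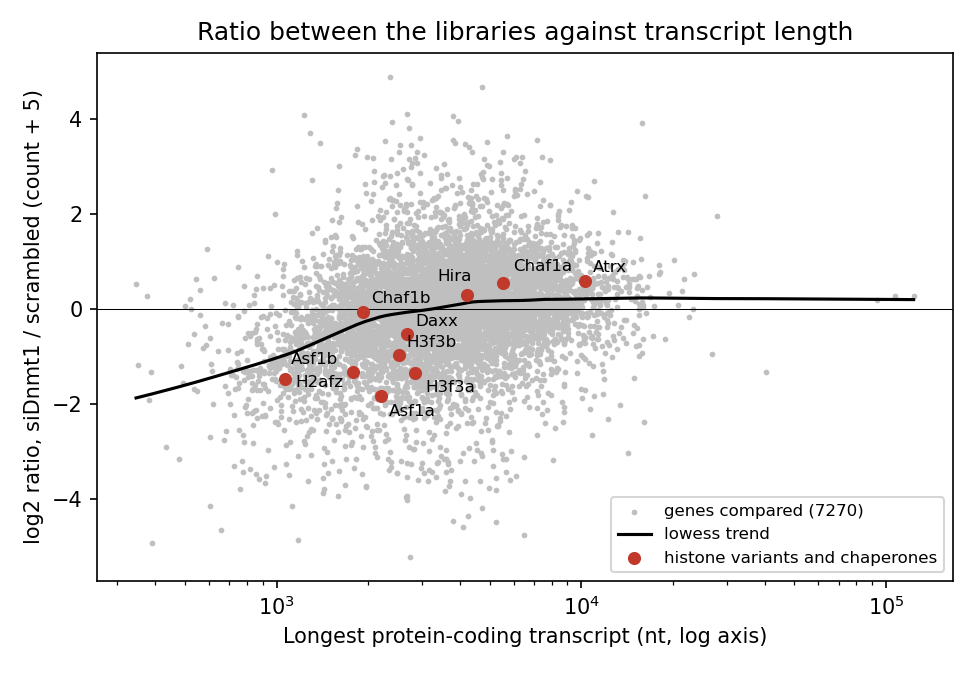
Log2 ratio, siDnmt1 over scrambled (counts + 5), against the longest protein-coding transcript in nt (log axis); grey points are the 7270 genes compared that had a length, red points the 10 genes, and the black line is the lowess trend. H2afz, at 1069 nt, lies where the trend is low, whereas Asf1a and H3f3a lie far below it.

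The promoters of the 5 genes that stood lowest are shown because these genes were low together, and they were picked after their values were seen. RefSeq windows (GRCm38.p6) of 300 bases, from 250 before to 50 after the annotated start, were found for all 10 genes, in 12 windows. Of the 5 genes, all carried the CCAAT box in the 120 bases before that start, as did 21.3% of all 32851 windows. The box was read as CCAAT or as ATTGG on the other strand. The start is that of the window, and annotated gene spans (GRCm38) place it elsewhere for some genes. By those spans the stretches of H3f3a, H3f3b, Asf1a and Asf1b lay inside the gene. Among the 5, only that of H2afz lay wholly before it. The 120 bases before the start are given for each, 5′ to 3′ on the gene's strand, with CCAAT or ATTGG in capitals. H2afz is at chr3:137864367-137864486 on the plus strand, H3f3a at chr1:180813606-180813725 on the minus strand, H3f3b at chr11:116024505-116024624 on the minus strand, Asf1a at chr10:53596841-53596960 on the plus strand and Asf1b at chr8:83955574-83955693 on the plus strand. Of the others, Hira and Chaf1b lie on chromosome 16, Chaf1a and Daxx on chromosome 17 and Atrx on chromosome X.
H2afz: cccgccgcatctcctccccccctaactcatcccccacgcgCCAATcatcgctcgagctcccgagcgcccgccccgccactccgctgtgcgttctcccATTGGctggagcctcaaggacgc
H3f3a: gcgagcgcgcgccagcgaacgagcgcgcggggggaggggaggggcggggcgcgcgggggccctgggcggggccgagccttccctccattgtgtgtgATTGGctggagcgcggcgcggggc
H3f3b: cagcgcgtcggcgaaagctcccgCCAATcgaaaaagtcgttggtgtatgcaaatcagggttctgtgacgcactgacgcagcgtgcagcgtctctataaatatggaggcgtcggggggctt
Asf1a: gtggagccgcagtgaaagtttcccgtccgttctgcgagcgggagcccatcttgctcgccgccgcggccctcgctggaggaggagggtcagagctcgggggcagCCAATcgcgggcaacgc
Asf1b: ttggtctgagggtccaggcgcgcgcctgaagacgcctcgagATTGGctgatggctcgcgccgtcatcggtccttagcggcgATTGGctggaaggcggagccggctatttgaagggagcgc
Among the other 5, Chaf1a and Atrx, which were higher in siDnmt1, also carried the box in the 120 bases before the start, and Chaf1b, Hira and Daxx did not. Over the whole 300 bases, H3f3b, Asf1b and Atrx held 4 copies each, a number reached by 1.06% of windows, so copies were not restricted to genes of 1 direction. CpG dinucleotides, the sites that Dnmt1 methylates, numbered 24 to 39 in every window of the 10 genes except that of Atrx, which had 11. The median over all windows was 7, and 20.0% held at least 24. The share of all windows with the CCAAT box was not matched for CpG number. Any link between the box and the direction of a gene was not tested. Methylation of these promoters was not measured in these libraries.

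Genes that work with the 10 were taken from 8 wider lists. Among 14 compared genes of the complexes that insert or remove H2A.Z, 2 passed the 2-fold rule downward and 0 upward, near the 16.7% and 12.5% of all genes. Their median log2 ratio was -0.47, and -0.26 after removal of the length trend. Of the 14, 11 had a log2 ratio below 0. The interval excluded equality downward for 9 and upward for 0, against 37.0% and 35.4% of all genes. Anp32e, the chaperone that removes H2A.Z from nucleosomes, had 1726 counts against 4078, 2.36-fold lower (2.23 to 2.50). Brd8, a bromodomain subunit of the p400 complex, had 923 against 1867, 2.02-fold lower (1.87 to 2.19). Brd8 lay at the threshold (log2 ratio -1.01) and was inside it with TMM scaling (-0.99), a median ratio of 0 (-0.99) or equal totals without Rn45s (-0.92), and Anp32e was inside it with the length trend removed on the median coding transcript (-0.87). At the other end, the ATPase gene Ruvbl1 had 53 against 44 counts and Epc1 374 against 339, with intervals that include equality. H2afz and its remover Anp32e were thus both lower in siDnmt1.

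Partners of HIRA and regulators of H3.3 gave 9 compared genes, with 1 at least 2-fold lower, 0 at least 2-fold higher and a median log2 ratio of 0.17. With 16.7% and 12.5% of all genes past the rule in these directions, these counts are near the background. Rpa1, a single-strand DNA binding protein that contacts HIRA, had 22 counts against 62, 2.82-fold lower (1.71 to 4.81) but inside the rule at a pseudocount of 20 (-0.97), and Zmynd11, a reader of methylated H3.3, had 18 against 30. Pml, the scaffold of the nuclear bodies that hold DAXX, had 280 against 143, 1.96-fold higher (1.60 to 2.41), and Morc3, another protein of those bodies, had 581 against 298, 1.95-fold higher (1.69 to 2.25). The HIRA complex subunits Ubn1 and Cabin1 were not among the extremes. They had 596 against 524 and 1782 against 1585 counts and, like Hira, were slightly higher in siDnmt1 (1.14-fold and 1.12-fold). After removal of the length trend their log2 ratios were 0.008 and -0.027, and the median of the list was 0.008. Ubn2, of the same list, had 423 against 274 counts, 1.54-fold higher (1.32 to 1.80). Its log2 ratio was 0.39 with the length trend removed.

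The list of the third CAF-1 subunit and of the supply of new H3-H4 gave 13 compared genes, with 2 at least 2-fold lower, 2 at least 2-fold higher and a median of -0.067, again near the 16.7% and 12.5% of all genes. Pcna, the replication clamp that recruits CAF-1, had 195 counts against 516, 2.65-fold lower (2.24 to 3.14). Mcm2, a helicase subunit that holds parental H3-H4, had 939 against 2040, 2.17-fold lower (2.01 to 2.35). Cdan1, which binds ASF1 in the cytoplasm, had 884 against 409, 2.16-fold higher (1.92 to 2.44), and Mms22l, a repair factor, had 79 against 36, 2.19-fold higher (1.46 to 3.35). After removal of the length trend Mcm2 stood at -1.13, past the rule, whereas Pcna (-0.82), Cdan1 (0.93) and Mms22l (0.89) did not reach it. On the median coding transcript Pcna (-1.15) and Mms22l (1.33) were past it. Rbbp4, the CAF-1 subunit shared with other complexes, had 279 against 335 counts. The CAF-1 subunits thus all lay within 1.5-fold. Pcna, the clamp that the large subunit binds, was lower, but by less than 2-fold once the length trend on the longest coding transcript was removed.

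General histone chaperones gave 11 compared genes, with 1 at least 2-fold lower, 1 at least 2-fold higher and a median of 0.12, beside 16.7% and 12.5% of all genes past the rule. Ncl, nucleolin, had 125324 counts against 312275, 2.49-fold lower (2.48 to 2.51), and Set, an inhibitor of histone acetylation, 658 against 1069, 1.62-fold lower (1.47 to 1.79). Sart3, a factor of spliceosome recycling that also binds histones, had 1555 against 706, 2.20-fold higher (2.01 to 2.41), and its log2 ratio of 1.13 was 0.99, inside the rule, after removal of the length trend. Supt16, a subunit of the FACT complex that handles H2A-H2B, had 867 against 522, 1.66-fold higher (1.49 to 1.85).

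Other histone genes were scarcely represented. Of 14 other histone variant genes in the table, 5 had no count in either library and 3 reached a mean of 20 counts. These were H2afy, the gene of macroH2A, with 18 counts against 30, Cenpa, the centromeric H3, with 48 against 35, and H2afv, described above, and all 3 intervals include equality. Of 65 replication-dependent histone genes, whose transcripts mostly end without a poly-A tail and are missed by oligo-dT capture, 51 had no count in either library. Only Hist1h1a, a linker histone gene, passed the filter, with 39 counts against 101, 2.59-fold lower (1.77 to 3.85). Its log2 ratio of -1.27 was 0.022 after removal of the length trend on the longest coding transcript, 0.051 on the longest of any type and -0.90 on the median coding transcript, so its direction depended on the length used. The 65 genes summed to 59 counts in siDnmt1 and 131 in scrambled, so canonical histone supply could not be measured in these libraries.

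**Figure D4:**
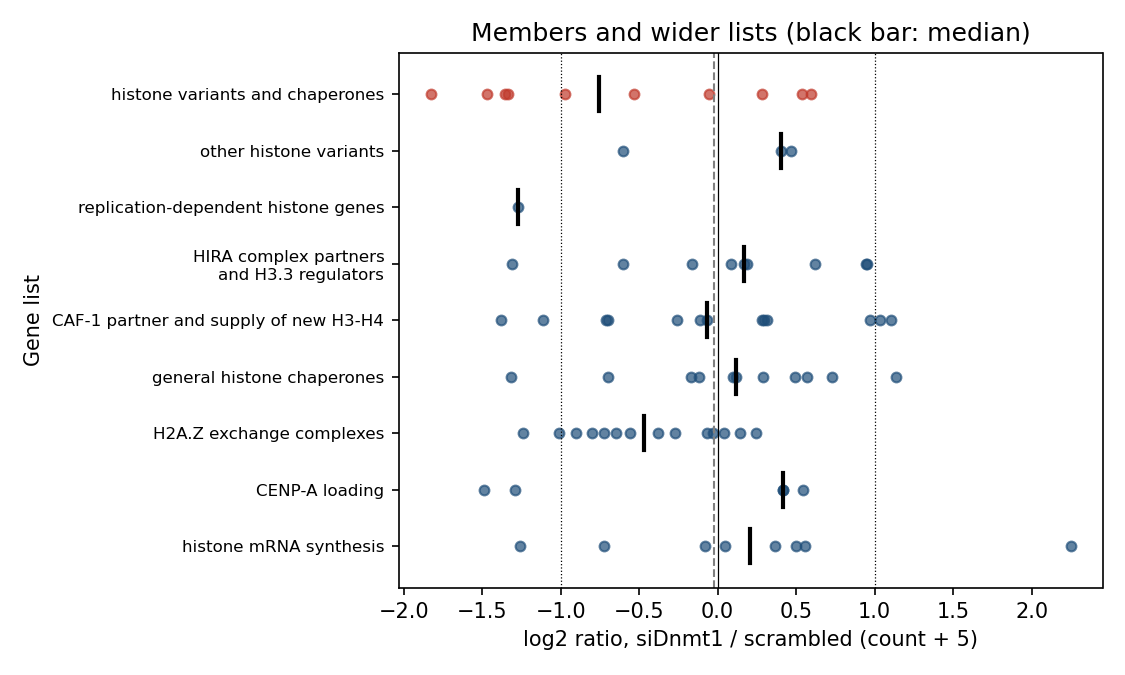
Log2 ratio, siDnmt1 over scrambled (counts + 5), of each gene compared, for the 10 genes (red) and the 8 wider lists (blue); black bars are list medians, dotted lines mark 2-fold and the dashed line is the median of all genes. The 10 genes have a median of -0.75 and the H2A.Z exchange genes of -0.47; the lists with the fewest genes are single or few points.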

How the data were processed

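The authors captured mRNA on oligo-dT beads, made adapter-tagged cDNA and amplified it by 20 cycles of PCR, per the labels' protocols. The deposited table gives whole-number counts per gene symbol. Trim Galore, HISAT2, HTSeq, DESeq2 and mm9 are named in the submitters' processing notes without versions. Which annotation and strand setting were used is not given in the sources used here. Its name calls the file DESeq2-normalised. Since 0 whole numbers from 1 to 59 were skipped in either column, the deposited counts were treated as unscaled, and other scalings were tried. A size factor of the DESeq2 type, computed from these counts, was 1.0 for siDnmt1, which an already scaled table would also give. Whether the counts had been scaled was thus not settled, and the counting intervals rest on the unscaled reading.

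With 1 library per group edgeR's test could not be fitted. Log2 ratios with a pseudocount of 5, counts of genes past 2-fold at a mean of at least 20 counts, and intervals were computed instead. Poisson intervals were used for levels. The length trend was a lowess curve (span 0.3) on the longest protein-coding GENCODE M21 transcript, found for 7270 of 7315 genes (99.4%). Coordinates are on GRCm38, not mm9. The 10 genes and 8 lists were chosen with earlier results of these data known. Named are all 10, Dnmt1, and the 2 highest and 2 lowest of each list (all, if fewer than 5). One gene that this rule takes is not reported here. Ubn1, Ubn2, Cabin1, Rbbp4 and Hjurp were named after their values were seen. In simulated Poisson counts for 7305 genes, 98.5% of 200 genes changed 4-fold were recovered, and 44.5% of 200 changed 2-fold among 7281. The simulation held counting error only, so recovery under the spread between pools or from PCR is not known from it. A 2-fold change sits at the cut-off itself, so recovery near that value was fixed in advance. Software was R 4.3.3 with edgeR 4.0.16 (TMM factors) and Python 3.11.15 with scipy 1.17.1, pandas 2.3.3, matplotlib 3.10.9, numpy 2.4.6 and statsmodels 0.14.6.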

Additional observations from a re-analysis of the deposited data

How the results depend on the processing

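Removal of the length trend reduced the genes at least 2-fold lower from 4 to 2 of the 10, on the longest coding transcript and on the longest transcript of any type; with the median coding transcript 3 remained past the rule, and H3f3a was at -0.99. At a 4-fold threshold the number was 0. None of the 10 was at least 2-fold higher (0) under any setting. Chaf1b changed sign under 4 settings, and the other 9 genes kept theirs in all. Over all genes, 1682 were at least 2-fold higher and 2122 lower with no filter, 395 and 482 at a mean of at least 100 counts, and 193 and 330 at 4-fold, against 911 and 1221; more or fewer genes enter by construction. Hist1h1a, alone in its list, turned from -1.27 to 0.022 and, on the longest transcript of any type, to 0.051, but was -0.90 on the median coding transcript. Scaling moved log2 ratios by at most 0.094. The settings based on median and any-type transcripts were chosen after seeing the data. The lists of other variants and of replication-dependent histones held no gene at that stricter mean. No paired analysis was possible because each group has 1 library, and for the same reason no library could be left out. Among the 10 genes, Asf1b and Daxx rest on the fewest counts, with 16 to 76.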

Other observations

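Among genes that load the centromeric histone CENP-A, Mis18a, a subunit of the complex that marks centromeres for loading, had 52 counts against 155 and was 2.98-fold lower in siDnmt1 (2.16 to 4.16). Its log2 ratio of -1.49 was -0.77, inside the 2-fold rule, with the length trend removed on the longest coding transcript, and -1.39 on the longest transcript of any type. The centromere proteins Cenpn and Cenpl had 753 against 516 and 39 against 28 counts, 1.46-fold (1.30 to 1.64) and 1.39-fold higher, the latter with an interval that includes equality. Hjurp, the chaperone of CENP-A, had 67 against 49 counts and the same log2 ratio as Cenpl.

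Genes of histone mRNA synthesis and 3′ end formation gave 8 compared genes, with 1 at least 2-fold lower, 1 at least 2-fold higher and a median log2 ratio of 0.21, beside 16.7% and 12.5% of all genes past the rule. Zfp473, a zinc finger protein of histone pre-mRNA processing, had 52 counts against 7, 7.43-fold higher with a wide interval (3.36 to 19.4). Cpsf2, a cleavage factor subunit, had 1898 against 1290, 1.47-fold higher (1.37 to 1.58). Cstf2, a cleavage stimulation factor, had 307 against 741, 2.41-fold lower (2.11 to 2.77), and Slbp, which binds the stem-loop of histone mRNA, 223 against 371, 1.66-fold lower (1.41 to 1.97).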
